A study of Mus musculus with 8 samples.

Results

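The transcripts described here are the single-exon entries of a catalogue of mouse long non-coding RNAs that lie far from coding genes. A row of the deposited table was taken when it had 1 exon, lay more than 10 kb from every protein-coding gene span of GENCODE release 21 on either strand and overlapped no pseudogene. It also needed at least 50 reads over the 8 libraries. Rows of the mitochondrial genome and of the ribosomal DNA stretch on chromosome 17 were left out. The rule found 7644 of the 83057 rows, or 9.20% of the table, and no measured difference between groups entered it. Liver RNA came from 4 mice fasted for 24 h and from 4 mice fed ad libitum. All were male C57BL/6 mice about 20 weeks old, killed at 10 am, with no transgene, deletion or drug named in the labels. Stranded total RNA libraries were made from 1 µg of RNA. Nothing in the labels names a batch, and each library is labelled a biological replicate.

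Long non-coding RNAs are transcripts without a long conserved reading frame. Those made from a single exon far from coding genes are a mixed class. It includes RNA polymerase III products such as 7SL, the RNA of the signal recognition particle, and 7SK, which holds back the elongation factor P-TEFb. It also includes nuclear RNAs such as Malat1, short-lived transcripts of enhancers, RNA that continues past the end of a gene, and copies of repeats. In the liver, fasting is known to turn on fatty acid oxidation, ketone body synthesis and gluconeogenesis and to turn down lipid synthesis.

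Sequence could be read for 266 members, those lying inside the only exon of a GENCODE transcript on their strand (GRCm38, the build of the table, also called mm10). The first set is shown because its reads belong to a family of copies. Gm26035, a 7SK-related gene at chrX:152923453-152923760 on the minus strand, is shown with the 7SK gene Rn7sk, also on the minus strand. The first 300 bases of both are printed (chrX:152923461-152923760 and chr9:78175334-78175633). Capitals mark bases that differ between them in the alignment.
Gm26035: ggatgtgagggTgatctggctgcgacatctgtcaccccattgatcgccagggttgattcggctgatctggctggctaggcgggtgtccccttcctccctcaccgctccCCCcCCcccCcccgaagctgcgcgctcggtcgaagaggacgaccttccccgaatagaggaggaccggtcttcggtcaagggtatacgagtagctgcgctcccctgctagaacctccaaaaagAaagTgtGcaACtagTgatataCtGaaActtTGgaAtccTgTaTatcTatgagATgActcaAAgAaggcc
Rn7sk: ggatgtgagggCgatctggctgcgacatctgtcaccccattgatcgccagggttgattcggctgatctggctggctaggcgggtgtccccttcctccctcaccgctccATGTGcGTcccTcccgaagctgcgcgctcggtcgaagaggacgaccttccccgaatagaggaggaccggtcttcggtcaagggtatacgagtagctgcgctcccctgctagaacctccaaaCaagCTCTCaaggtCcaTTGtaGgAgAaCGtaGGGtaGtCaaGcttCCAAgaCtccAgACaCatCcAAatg
Of the first 200 aligned positions, Gm26035 matched Rn7sk at 191. The remaining positions matched at 84 of 134, so the similarity lay mostly in the 5′ part. Reads of such stretches fit several places in the genome, and no source used here says how the authors placed them. The levels of the 7SL- and 7SK-related members are uncertain for that reason. The other most abundant rows described below were not compared with repeats or with ribosomal or mitochondrial copies. Their levels, and the share of reads that rests on them, may be uncertain too.

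Levels are given as CPM, the count of a row relative to the TMM-scaled library total. The 3′ ends of members carry the next set of sequences, since they show where the catalogue ends a transcript. The polyadenylation signals AATAAA and ATTAAA were searched on the transcript strand of the 233 members whose 3′ end is also the GENCODE end. At least 1 of them lay in the last 50 bases of 80 members, or 34.3%. The same search found one in 6.01% of the windows 50 to 100 bases before the end and in 7.73% of the first 50 bases. Shown with the signals in capitals are the last 120 bases of the 3 largest rises and of 2 of the 3 largest falls with a sequence, a non-overlapping pair of groups and at least 1 CPM in the higher group. The 3 most-read members of that kind with a signal in the last 50 bases follow. All were chosen after their values were seen.
9430083B18Rik, chr1:172874294-172874413, plus strand, higher in fasted livers: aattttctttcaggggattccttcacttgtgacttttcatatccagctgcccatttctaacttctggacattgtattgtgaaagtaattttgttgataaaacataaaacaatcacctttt
Gm43611, chr5:28032055-28032174, minus strand, higher in fasted livers: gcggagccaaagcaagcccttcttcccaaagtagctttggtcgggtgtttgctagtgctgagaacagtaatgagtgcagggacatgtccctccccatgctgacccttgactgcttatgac
Gm43923, chr6:93197732-93197851, plus strand, higher in fasted livers: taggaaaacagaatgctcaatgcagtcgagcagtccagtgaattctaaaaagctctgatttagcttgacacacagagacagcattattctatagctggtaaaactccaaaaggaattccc
Gm45817, chr8:33985444-33985563, minus strand, lower in fasted livers: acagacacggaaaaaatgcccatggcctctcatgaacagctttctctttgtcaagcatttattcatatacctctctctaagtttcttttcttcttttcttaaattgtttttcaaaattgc
Gm37606, chr16:77564646-77564765, plus strand, lower in fasted livers: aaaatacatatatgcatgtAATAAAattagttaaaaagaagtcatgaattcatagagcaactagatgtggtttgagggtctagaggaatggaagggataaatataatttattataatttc
Gm42503, chr5:143773626-143773745, plus strand, lower in fasted livers: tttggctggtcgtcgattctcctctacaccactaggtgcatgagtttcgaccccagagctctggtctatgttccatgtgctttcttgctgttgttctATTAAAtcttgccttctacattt
5330406M23Rik, chr6:31108827-31108946, minus strand, higher in fasted livers: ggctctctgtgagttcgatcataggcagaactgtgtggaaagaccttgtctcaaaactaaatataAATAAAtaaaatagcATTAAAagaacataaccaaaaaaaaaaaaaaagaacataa
Gm43800, chr6:31291574-31291693, plus strand, higher in fasted livers: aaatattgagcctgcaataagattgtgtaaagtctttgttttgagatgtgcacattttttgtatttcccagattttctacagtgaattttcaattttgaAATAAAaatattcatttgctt
None of the first 5 ends held a signal within 50 bases of the end, and Gm37606 had one 95 bases before it. In Gm42503 and Gm43800 the last signal ended 17 and 15 bases before the 3′ end. In 5330406M23Rik it ended 34 bases before it. Of the 25 changed members that met the same conditions, 9 had a signal in the last 50 bases, 5 of the 10 that were higher and 4 of the 15 that were lower in fasted livers. These letters describe the windows and do not show where RNA was cut.

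**Figure D1:**
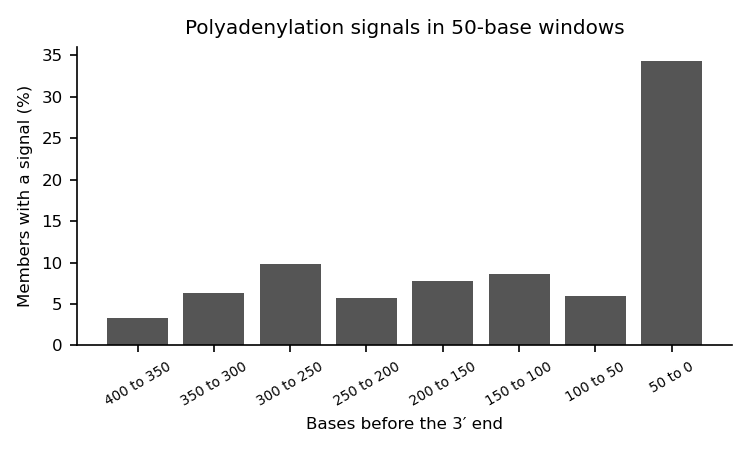
Share of members with AATAAA or ATTAAA on the transcript strand (vertical axis, percent) in 50-base windows counted back from the 3′ end (horizontal axis), for up to 233 members whose 3′ end is a GENCODE end. The last window stood at 34.3% and the other 7 between 3.32 and 9.82%.

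Length and coding score were checked against the label. Members were 205 to 74456 bases long, with a median of 1380.5 bases, and lay up to 2180 kb from the nearest coding gene, with a median distance of 38.5 kb. They formed 7229 separate loci, of which 6896 held 1 member. On the same strand, 1352 members shared bases with a GENCODE non-coding gene, 240 had such a gene on the opposite strand only, and 6052 touched no GENCODE gene. The deposited CNCI score, which is above 0 for a transcript classed as coding, was above 0 for 3.03% of the tested members and for 1.23% of all tested rows. A single exon is the catalogue's own statement. Among 25 pairs of members on opposite strands that shared at least 80% of their bases, 21 had read totals within 1.25-fold of each other. Reads of the 2 strands cannot be told apart there. Strands given for other rows are the catalogue's labels, and no source used here says whether the counting used strand. In whole liver, fewer cells of a type and less RNA per cell cannot be told apart either.

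The 8 libraries did not split by diet alone. They held 126365222 to 169698844 reads in the fasted group and 51107745 to 98464634 in the ad libitum group. The lowest total, of ad libitum replicate 3, holds no mitochondrial 16S rRNA reads because that cell was empty. Without the 16S row the totals were 90243439 to 119486211 in the fasted group and 51107745 to 68691606 in the ad libitum group. On the first principal component of all tested rows, which held 47.6% of the variance, fasted replicates 1 to 3 sat at -103 to -90.5. Fasted replicate 4 sat at 4.37 and the ad libitum libraries at 66.6 to 75.3. Rows of 21 to 200 reads had an odd count in 16.5 to 17.8% of cases in fasted replicates 1 to 3, in 10.8% in fasted replicate 4 and in 9.21 to 10.3% in the ad libitum libraries. Changes are therefore given over all 8 libraries, and many again for fasted replicate 4 against the 4 ad libitum libraries. The second estimate comes from a model with a term for fasted replicates 1 to 3. There the fasted arm is 1 library, assumed to vary like the other groups, so its p-values rest on their spread and do not show that a change repeats between animals. Rows on exons of hepatocyte marker genes, which existed for 5 of 12 markers, summed to 2710 to 3530 CPM in fasted livers, against 1570 to 2380 in ad libitum livers, and 2 passed as higher and 1 as lower. Rows on 5 of 6 stellate cell markers summed to 20.3 to 67.7 in fasted livers and to 16.4 to 30 in ad libitum livers, and of the 4 tested 1 passed as higher and 2 as lower. Rows on 5 of 6 sinusoidal endothelial markers summed to 3.24 to 4.72 in fasted livers and to 2.46 to 3.53 in ad libitum livers. Rows on markers of Kupffer cells, cholangiocytes, lymphocytes, adipocytes and pancreas summed, list by list, to at most 4.11 CPM in fasted libraries and 4.34 CPM in ad libitum libraries, and erythroid markers had no row. Neither the cell makeup nor the library split was tested for its part in the results below.

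A few members took most of the class's reads. The median level was 0.247 CPM per kilobase of transcript, the middle 50% of members lay between 0.105 and 0.796, and 15 members stood above 100. The 5 members with the most reads held 77.9, 79.9, 85.5 and 83.3% of member reads in fasted replicates 1 to 4, against 83.1, 82.9, 83.4 and 82.6% in ad libitum replicates 1 to 4. Shares of reads were taken from totals without the mitochondrial rRNA row described above. In fasted livers, members took 9.45, 10.1, 11 and 9.28% of these reads, against 8.94, 8.58, 8.98 and 8.48% in ad libitum livers. The groups did not overlap. The mean share was 9.96 ± 0.788% in fasted livers and 8.74 ± 0.253% in ad libitum livers (SD, n = 4 each), a difference of 1.21 percentage points (two-sided exact permutation test, p = 0.0286, the smallest that 4 against 4 allows). Without the 5 most-read members the shares were 2.09, 2.03, 1.60 and 1.55% in fasted livers, against 1.51, 1.47, 1.49 and 1.48% in ad libitum livers, and still did not overlap. Without the 10 most abundant members the shares averaged 1.43 ± 0.230% in fasted livers and 1.28 ± 0.0329% in ad libitum livers (SD, n = 4 each), and the difference was 0.143 points (same exact test, p = 0.429).

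Levels per kilobase ordered the most abundant members, and the values below are CPM in replicates 1 to 4 of each group. The member highest per kilobase covered Rn7s6, a 7SL RNA gene, and had 19100, 15800, 23900 and 24900 in fasted livers, against 26400, 25900, 26700 and 27600 in ad libitum livers. Every fasted library lay below every ad libitum library, yet the log2 difference of -0.35 ± 0.16 (SE) did not pass (edgeR, adjusted p = 0.15), and it did pass without fasted replicate 4 (-0.45, adjusted p = 0.039). A row at chr11:109011680-109012118, with no annotated gene, had 18900, 22200, 36500 and 20400 in fasted livers, against 14900, 15300, 15200 and 13300 in ad libitum livers. It was higher in every fasted library, by 0.74 ± 0.19 on the log2 scale (edgeR, adjusted p = 0.017, and 0.057 and 0.071 without ad libitum replicate 1 or 4), with 0.48 for fasted replicate 4. Gm26035 had 1070, 965, 1480 and 846 in fasted livers, against 618, 709, 570 and 689 in ad libitum livers. All fasted libraries were above all ad libitum libraries, and the log2 difference of 0.75 ± 0.16 passed (edgeR, adjusted p = 0.0055, 0.39 for fasted replicate 4). Rn7sk itself, no member of the class, stood at 13900, 13900, 16400 and 19000 in fasted livers, against 14200, 16100, 12900 and 15500 in ad libitum livers. Rn7s1 and Rn7s2, near-copies on chromosome 12, had 82800, 60900, 103000 and 119000 CPM and 85900, 64800, 108000 and 124000 CPM in fasted livers, against 112000, 113000, 117000 and 123000 CPM and 118000, 118000, 122000 and 128000 CPM in ad libitum livers. The row at chr2:80838455-80838759 averaged higher in fasted livers by 0.62 ± 0.18 (edgeR, adjusted p = 0.036), with overlapping groups, and did not pass without any library other than fasted or ad libitum replicate 2 (adjusted p 0.051 to 0.098). Also short of the threshold were the rows at chr12:99645126-99645675 (0.37, adjusted p = 0.18), chr3:5860338-5860904 (0.17, 0.61) and chr6:3200769-3201744 (-0.13, 0.71). The eighth, on chromosome 18, is described with the rises that 3 libraries carried.

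Members changed in both directions in fasted livers. Of the 7644 members, 5813 had enough reads for the test and 1831 did not. In fasted livers 620 members, or 10.7% of those tested, were higher and 327, or 5.63%, were lower (edgeR's quasi-likelihood test, Benjamini-Hochberg adjusted p under 0.05 over all 40840 tested rows). The same rule called 9.55% of all tested rows higher and 7.67% lower. The excess of rises turned round with limma-voom (276 higher, 291 lower) and with a minimum of 1 CPM in 4 libraries (221 higher, 227 lower). The median log2 difference was 0.08 over tested members and 0.01 over all tested rows. At least 2-fold rises numbered 460 and at least 2-fold falls 91, where 5.61% and 2.32% of all tested rows passed those limits. The groups did not overlap for 519 members with fasted higher and for 521 with fasted lower, where this held for 9.09% and 10.2% of all tested rows. A member could pass the read filter through its higher group alone, so these counts describe the tested members only. The number of calls depended on single libraries. When fasted replicate 1 was left out, 288 were higher and 169 lower. Leaving out fasted replicate 3 gave 300 and 173. Rises numbered 370 when fasted replicate 2 was left out and 1615 when fasted replicate 4 was. Lower calls numbered 190, 204 and 191 without ad libitum replicate 1, 3 and 4. Fewer members were tested without fasted replicate 1, 2 or 3, and more without fasted replicate 4 or any 1 ad libitum library. These counts were not set beside those of all tested rows in each fit, so they are not shown to be particular to this class.

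Distance from coding genes went with the balance of the calls. Between 10 and 50 kb, 11.5% of 3274 tested members were higher and 4.92% lower in fasted livers. Between 50 and 200 kb the shares were 10.8% and 6.00% of 1551, and beyond 200 kb 7.89% and 7.39% of 988. The difference between these bins was not tested. Spliced transcripts equally far from coding genes had 10.6% higher and 9.14% lower of 3229, and single-exon transcripts within the distance had 7.36% and 8.28% of 17978. By position relative to the nearest coding gene, members upstream on the same strand had 9.85% higher and 5.04% lower, those upstream on the opposite strand 11.1% and 5.18%, those downstream on the same strand 10.6% and 5.83%, and those downstream on the opposite strand 11.4% and 7.04%. Members on no GENCODE gene had 11.1% higher and 4.84% lower, against 8.96% and 8.69% for those on a same-strand non-coding gene.

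**Figure D2:**
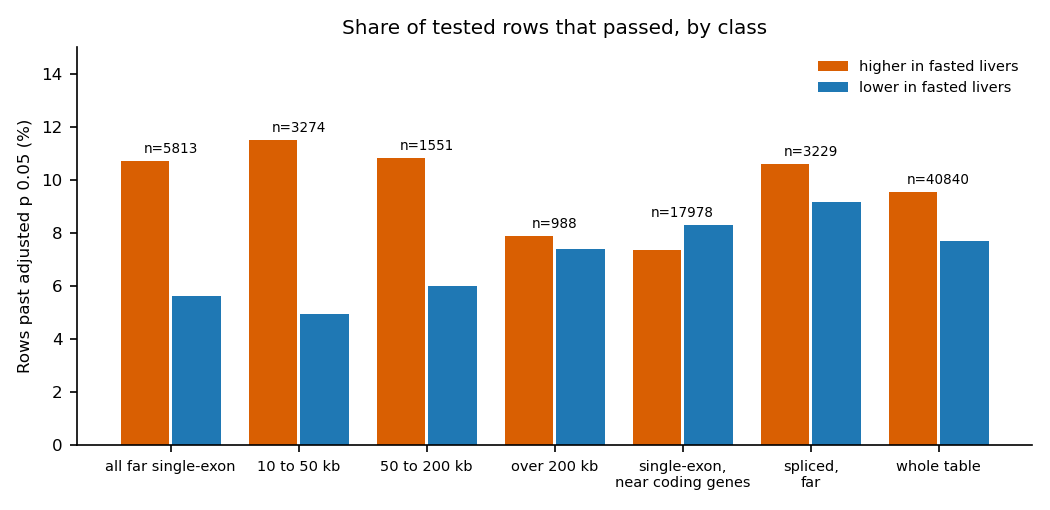
Percent of tested rows past adjusted p 0.05 (vertical axis), higher (orange, left bar) and lower (blue, right bar) in fasted livers, for far single-exon members, for their bins of distance, for 2 comparison classes and for the whole table, with the number tested above each pair. Higher exceeded lower in all 3 distance bins and lower exceeded higher only in single-exon rows near coding genes.

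The rises and the falls differed in how far fasted replicate 4 shared them. For the 620 rises, the median log2 difference from the ad libitum mean was 1.49 in fasted replicates 1 to 3 and 0.54 in fasted replicate 4. For the 327 falls the medians were -0.66 and -0.54. In 356 rises, 57.4% of them, fasted replicate 4 moved less than 50% as far on the log2 scale as the other fasted libraries, compared with 34 falls, or 10.4%. These shares were not set beside those of all called rows, so they are not shown to be particular to this class. Fasted replicate 4 also stood apart from the other fasted libraries over all tested rows. The model that compares fasted replicate 4 with the ad libitum libraries called 86 members higher and 39 lower, where it called 2.06% and 1.23% of all tested rows, and 81 of the 620 rises and 27 of the 327 falls were among them. In 64 tested members, 1.10%, every one of fasted replicates 1 to 3 was more than 4 times every other library, against 0.955% of all tested rows.

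**Figure D3:**
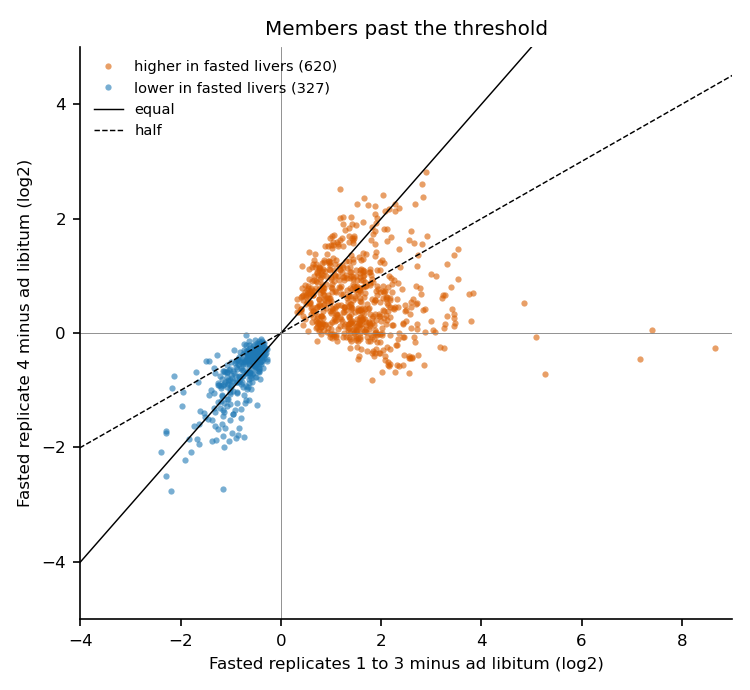
Log2 difference from the ad libitum mean for each of the 947 members past the threshold, in fasted replicates 1 to 3 (horizontal axis) and in fasted replicate 4 (vertical axis). Orange points (620) were higher and blue points (327) lower in fasted livers. Falls lie near the solid line of equal change, and 356 rises lie under the dashed line that marks 50% of that change.

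Some large rises were carried by 3 of the 4 fasted libraries. At chr18:7028754-7030291, 24.0 kb from Mkx and on no annotated gene, fasted livers had 589, 726, 1090 and 1.55, against 2.06, 1.76, 1.85 and 1.78 in ad libitum livers. Fasted replicate 4 was at the ad libitum level, with a log2 difference of -0.27, while the estimate over all libraries was 8.34 ± 1.82 (edgeR, adjusted p = 0.029). Similar rows lay at chr16:74700485-74709043 (55.7, 64.1, 75.8 and 0.349 in fasted livers, against 0.286, 0.611, 0.197 and 0.344 in ad libitum livers) and at chr9:4259574-4261213 (32.7, 20.2, 22.7 and 0.0748, against 0.0857, 0.180, 0.118 and 0.115). Rows at chr6:136464032-136465858 and chr10:88844718-88846147 had 8.22, 8.11, 8.85 and 0.187 and 8.30, 7.45, 7.90 and 0.0748 in fasted livers, against at most 0.276 and 0.288 in any ad libitum library. These last 4 were named after their values were seen, among rows with this pattern, and do not show how common it is. For these 5 rows the estimate for fasted replicate 4 was below 0, and adjusted p was over 0.05 without any 1 library other than fasted replicate 4 (0.061 to 0.11).

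Of the 8 largest rises with non-overlapping groups, 1 per locus and at least 1 CPM, 6 also had fasted replicate 4 far below the other fasted libraries. The row at chr6:145314441-145315591, 49.5 kb from Lmntd1, had 190, 224, 155 and 21.7 in fasted livers, against 17.9, 13.8, 16.6 and 21 in ad libitum livers. Its log2 difference of 3.09 ± 0.70 (edgeR, adjusted p = 0.031) passed neither for fasted replicate 4 (0.32, adjusted p = 0.51) nor without any 1 library other than fasted replicate 4 (0.071 to 0.081). Rows near Rbms3 (3.81), Magee1 (3.51), Robo2 (3.47), Tmem29 (3.23) and Chrd (3.09 at chr16:20892359-20893162) had estimates of 0.73, 0.95, 0.52, 1.29 and 0.71 for fasted replicate 4, none of which passed. The call near Rbms3 was lost without any 1 library other than fasted replicate 4 (adjusted p 0.057 to 0.083), and that near Robo2 without ad libitum replicate 1 (0.052). The second row near Chrd, at chr16:20893245-20895293, had 2.84, 2.11, 2.70 and 1.06 in fasted livers, against 0.200, 0.288, 0.355 and 0.344 in ad libitum livers, with a log2 difference of 2.88 (edgeR, adjusted p = 8e-05) and 1.84 for fasted replicate 4. The row at chr18:13278838-13280253, 256 kb from the histamine receptor gene Hrh4, had 1.43, 0.831, 1.16 and 1.05 in fasted livers, against 0.0857, 0.108, 0.158 and 0.0861 in ad libitum livers. Groups that do not overlap were a condition of the choice, but here fasted replicate 4 also lay within the range of the other fasted libraries. The log2 difference was 3.37 ± 0.31 (edgeR, adjusted p = 1.2e-05), with 3.28 for fasted replicate 4.

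**Figure D4:**
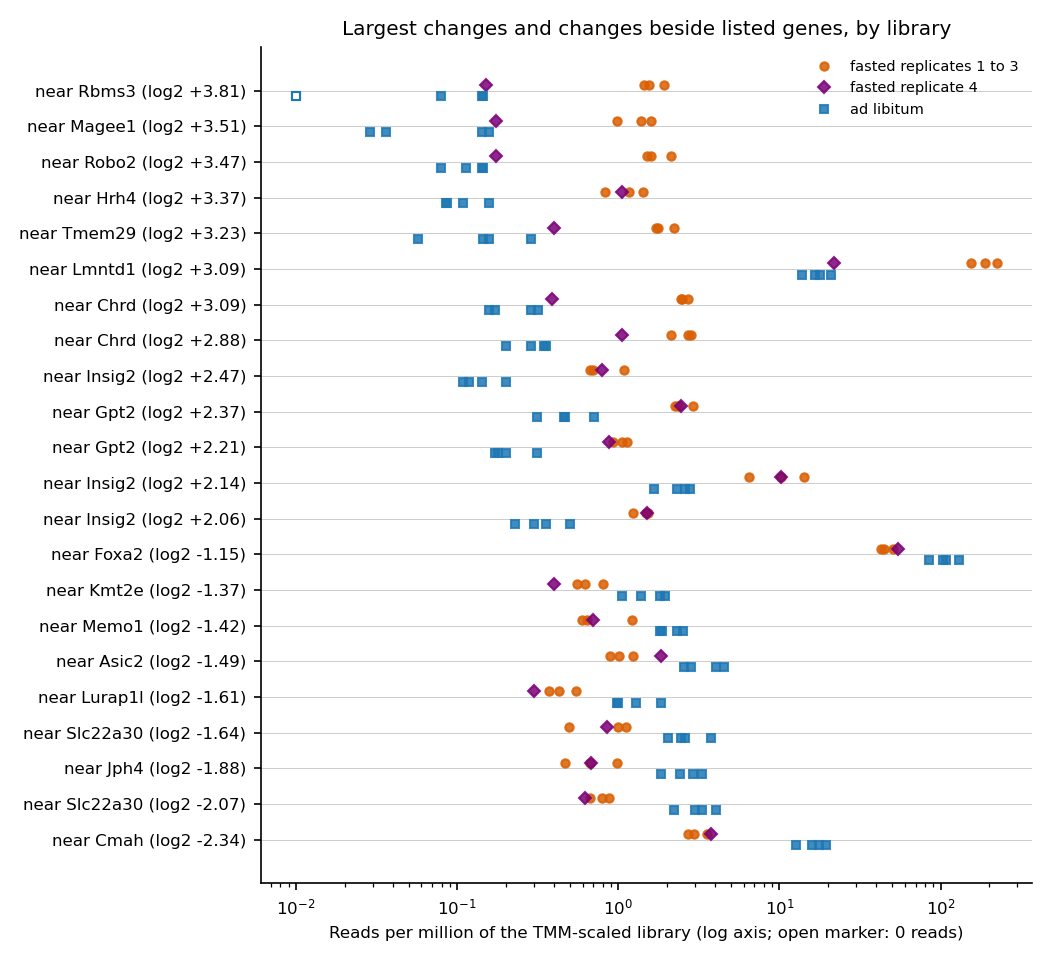
CPM in each library (horizontal log axis) for 22 members, named by the nearest coding gene with the log2 difference over all libraries: the 8 largest rises, the 8 largest falls and 6 members beside listed genes. Fasted replicates 1 to 3 (circles) and fasted replicate 4 (diamonds) are drawn above the ad libitum libraries (squares) on each line, and an open square marks 0 reads. Near Insig2, Gpt2 and Hrh4 all 4 fasted libraries stand right of the ad libitum libraries, while near Lmntd1 fasted replicate 4 stands beside them.

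Members whose nearest coding gene belongs to fasting-related pathways were counted over 5 gene lists with 121 genes, of which 22 had at least 1 member as nearest neighbour. Of 82 tested members beside them, 17 were higher and 3 lower in fasted livers, 20.7% and 3.66%, where the whole table had 9.55% and 7.67%. The median log2 difference was 0.10 beside listed genes and 0.01 over the table. Beside sterol and lipid synthesis genes, 9 of 30 tested were higher and 2 lower (median 0.10). Of these rises 6 were nearest to Insig2, 2 to Insig1 and 1 to Sqle, while none of the 9 rows nearest to Cyp51 passed. Next to gluconeogenesis and amino acid genes, 4 of 18 were higher and none was lower by this test (median 0.10), 2 of them near Irs2 and 2 near Gpt2. Beside fatty acid oxidation and ketone genes, 1 of 3 was higher, and of the 17 beside Ppara, the nuclear receptor of the fasting response, 1 was higher (median -0.07). Beside hepatocyte transcription factor genes, 2 of 14 were higher and 1 was lower (median 0.58). Several of these members lie side by side and so are not separate observations.

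The transcripts just downstream of Insig2 rose in all 4 fasted livers. Insig2 encodes an endoplasmic reticulum protein that holds back the processing of the sterol regulator SREBP. All 11 tested members nearest to it lay past its 3′ end on its own strand. The nearest, at chr1:121290693-121294081 and 10.3 kb away, had 6.48, 10.3, 14.2 and 10.2 in fasted livers, against 2.59, 2.77, 2.33 and 1.66 in ad libitum livers. The groups were far apart, with a log2 difference of 2.14 ± 0.24 (edgeR, adjusted p = 0.00028) and 2.13 for fasted replicate 4. Rows 13.7, 14.9, 16.6 and 17.3 kb away rose by 2.06, 2.10, 1.82 and 2.47 (adjusted p = 9.1e-05, 0.00089, 0.0078 and 0.00016), and the row 18.7 kb away by 0.95 (adjusted p = 0.045, and 0.076 to 0.12 without any 1 library other than fasted replicate 2). From 19.7 to 37.0 kb the next 5 rows had log2 differences of -0.22, -0.09, -0.78, -0.37 and -0.30. One of those passed, the row 33.8 kb away, which fell by 0.37 (adjusted p = 0.018, and 0.058 and 0.052 without fasted replicate 1 or 2). The most-read catalogue row on exons of Insig2 averaged 130 ± 25 in fasted livers and 42.8 ± 5.00 in ad libitum livers (SD, n = 4 each), a log2 difference of 1.60 (edgeR, adjusted p = 7.4e-06). This row and those on exons of other coding genes below were taken on either strand, so they need not be the messenger RNA.

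A pair of members lay upstream of Gpt2, the mitochondrial alanine aminotransferase that feeds amino acid carbon into gluconeogenesis. The row at chr8:85473667-85475270, on the opposite strand and 17.3 kb away, had 2.36, 2.24, 2.90 and 2.44 in fasted livers, against 0.314, 0.468, 0.710 and 0.459 in ad libitum livers. The row at chr8:85466002-85467288 had 0.924, 1.05, 1.14 and 0.873 in fasted livers, against 0.171, 0.180, 0.315 and 0.201 in ad libitum livers. Both rose in every fasted library, by 2.37 ± 0.22 and 2.21 ± 0.27 (edgeR, adjusted p = 1.3e-05 and 0.00011), with 2.35 and 2.02 for fasted replicate 4. Beside Irs2, the insulin receptor substrate, rows 76.6 and 77.9 kb away at chr8:10906839-10908050 and chr8:10906164-10906784 rose by 0.82 and 0.96 (edgeR, adjusted p = 0.0005 and 0.0011). For fasted replicate 4 they stood at 0.67 and 0.83. Gm43611, 35 kb upstream of Insig1 on the opposite strand, had 34.0, 31.5, 35.9 and 39.2 in fasted livers, against 12.2, 29.2, 18.1 and 17.8 in ad libitum livers. The groups did not overlap, which was a condition for printing its sequence. The log2 difference was 0.86 ± 0.23 (edgeR, adjusted p = 0.031), and the call was lost without any 1 library other than ad libitum replicate 1 or 2 (0.054 to 0.084). For fasted replicate 4 the estimate was 1.02. A row with the same coordinates on the plus strand had nearly the same reads, 19257 against 19195, and did not pass (0.80, adjusted p = 0.059), so the strand of this signal cannot be told apart. Of the other 3 tested rows nearest to Insig1, 1 was higher (0.94, adjusted p = 0.025) and 1 fell by 0.51 (adjusted p = 0.013). Beside Acaa2, an enzyme of mitochondrial fatty acid oxidation, a row at chr18:74817723-74818420 had 0.271, 0.237, 0.371 and 0.811 in fasted livers, against 0.143, 0.036, 0.237 and 0.0574 in ad libitum livers. Its estimate of 1.83 (adjusted p = 0.038) rested on few reads and was lost without fasted replicate 3 or 4 or ad libitum replicate 1, 2 or 4 (0.071 to 0.12). Beside Foxa2, a pioneer transcription factor of hepatocytes, the member at chr2:147936832-147943892 went the other way. It had 50.4, 43.0, 44.4 and 54.4 in fasted livers, against 130, 108, 104 and 84.6 in ad libitum livers, and fell by 1.15 on the log2 scale (SE 0.13, edgeR, adjusted p = 6.4e-05), with -0.97 for fasted replicate 4. The rows beside Irs2, Insig1 and Acaa2 and 4 of the 7 rows that passed beside Insig2 were named after their values were seen. The most-read row on Foxa2 exons, 99.0 kb away, averaged 12.2 ± 1.52 in fasted livers and 12.5 ± 3.14 in ad libitum livers (SD, n = 4 each).

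Neighbouring members were also grouped, to find places where several were called in 1 direction. Members with gaps of at most 25 kb formed 563 clusters of 3 or more tested rows, and 33 clusters held at least 3 calls in 1 direction and none in the other, 16 higher and 17 lower. This grouping was made after the values were seen and carries no test. Calls within the 33 clusters agree in direction by that choice, and clusters with calls in both directions are not counted here. Overlapping rows of a cluster may share reads, so rows are not separate observations and summed levels may count reads more than once. Between Spen and Fblim1, 7 of 7 rows on the plus strand, in 5 loci, rose within 9.33 kb of chromosome 4 (141555791-141565119). Their summed level was 21.5, 17.6, 18.4 and 15.6 in fasted livers, against 7.03, 11.3, 7.47 and 7.96 in ad libitum livers, with log2 differences of 0.81 to 1.34 over all libraries and 0.68 to 1.01 for fasted replicate 4. Fblim1 encodes a filamin-binding adhesion protein, and its most-read row did not pass (0.47, adjusted p = 0.42). Downstream of Fgfr4, the liver receptor for the bile acid hormone FGF15, 5 of 10 rows rose within 12.4 kb of chromosome 13. The 10 rows formed 4 loci, and the 5 that rose overlap across both strands. The row at chr13:55184771-55186647, named after its values were seen, had 165, 193, 166 and 198 in fasted livers, against 70.7, 82.6, 107 and 71.3 in ad libitum livers, a rise of 1.12 ± 0.14 (edgeR, adjusted p = 0.00011).

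Several falling clusters spanned long stretches. Upstream of Dpyd, the enzyme that starts pyrimidine breakdown, 12 of 23 rows fell along 111 kb of chromosome 3 (118434770-118545614), most of them over the non-coding gene Gm26871. All 23 estimates were below 0, and 21 of 23 were below 0 for fasted replicate 4. Their summed level was 21.4, 30.7, 18 and 26.7 in fasted livers, against 36.2, 42.1, 50.9 and 37.0 in ad libitum livers. Of the 33 clusters, the one with the most rows lay between Eipr1 and Myt1l on chromosome 12, with 115 rows in 100 loci over 344 kb. There 13 rows fell, 102 did not pass and 113 of 115 estimates were below 0. The summed levels overlapped, at 140, 163, 57.2 and 127 in fasted livers, against 277, 158, 283 and 186 in ad libitum livers. On chromosome 17, 8 of 19 rows between Scaf8 and Tiam2 fell (median -0.82, and -0.86 for fasted replicate 4). In summed level, fasted replicate 4 did not always go with the other fasted libraries in falls. Near S1pr1 on chromosome 3, where 4 of 5 rows fell, the summed level was 0.797, 0.964, 0.743 and 7.96 in fasted livers, against 10.6, 11.1, 11.2 and 8.90 in ad libitum livers. The row estimates for fasted replicate 4 were nonetheless all below 0 there, from -3.63 to -0.17. Their median was -1.89, where the median over all libraries was -1.63. Exon rows of Scaf8 and Tiam2 had log2 differences of 0.02 and 0.15, neither of which passed (adjusted p = 0.91 and 0.55).

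**Figure D5:**
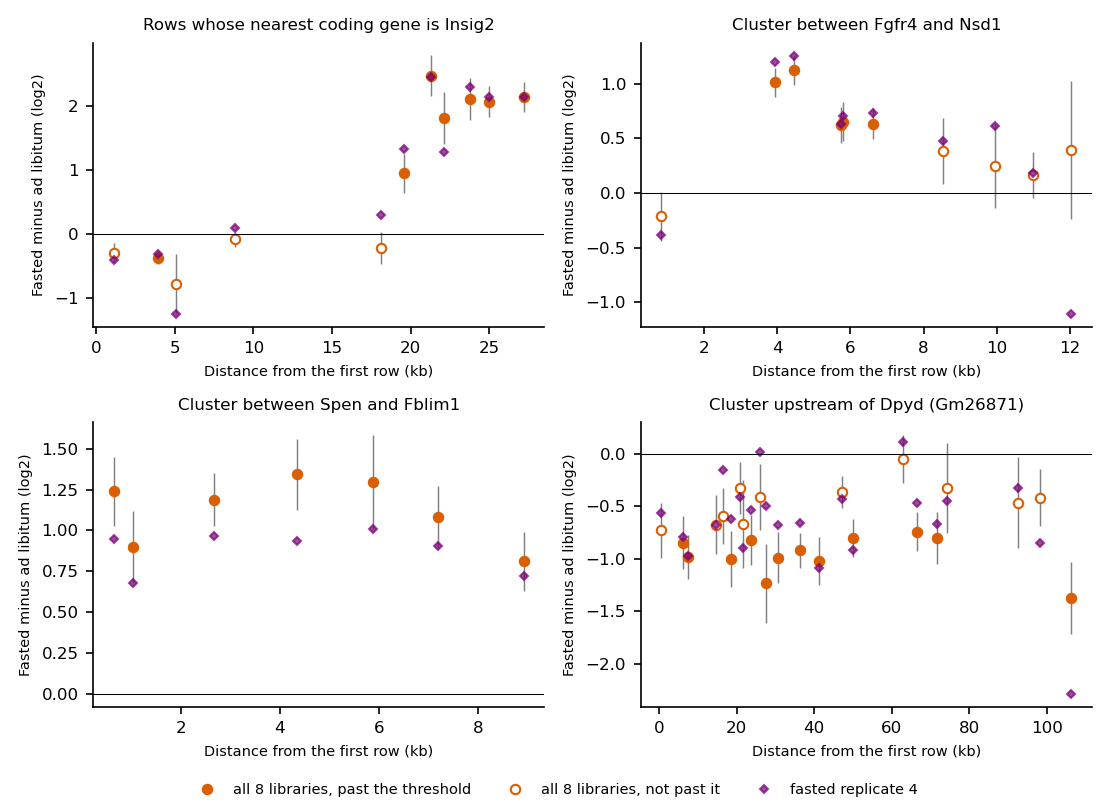
Log2 difference of fasted minus ad libitum livers (vertical axis, with SE bars) for each tested member against its distance from the first row of its group (horizontal axis, kb), nearest to Insig2 and in the clusters between Fgfr4 and Nsd1, between Spen and Fblim1 and upstream of Dpyd. Filled circles passed and open circles did not, and diamonds give fasted replicate 4. The 6 rows nearest to Insig2, at the right of its panel, lie above 0, and all 23 rows upstream of Dpyd lie below 0.

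The 8 largest single falls were chosen among rows whose groups did not overlap, so all 4 fasted libraries lie below the ad libitum libraries by that choice. At chr13:24304780-24306543, 20.9 kb from Cmah, the sialic acid hydroxylase gene, fasted livers had 3.55, 2.95, 2.72 and 3.79, against 19.6, 15.9, 17.6 and 12.7 in ad libitum livers. The groups were far apart, and the row fell by 2.34 on the log2 scale (SE 0.15, edgeR, adjusted p = 6.4e-07), with -2.12 for fasted replicate 4. The most-read row on Cmah exons had a log2 difference of -0.58 (adjusted p = 0.024). Near Slc22a30, a solute carrier gene, the row at chr19:8312900-8314045 had 0.797, 0.875, 0.668 and 0.623 in fasted livers, against 4.03, 2.23, 3.00 and 3.30 in ad libitum livers. It lay over AC166748.2 and fell by 2.07 (adjusted p = 1.3e-05), and its neighbour at chr19:8315038-8315777 fell by 1.64 (adjusted p = 0.00074). Both kept their direction in fasted replicate 4 (-2.33 and -1.69). The row at chr14:55159929-55161472, near Jph4, had 0.988, 0.668, 0.470 and 0.673 in fasted livers, against 1.83, 3.31, 2.92 and 2.41 in ad libitum livers, and fell by 1.88 (adjusted p = 0.00015). Rows near Lurap1l, Asic2, Memo1 and Kmt2e fell by 1.61, 1.49, 1.42 and 1.37 (adjusted p = 0.0011, 0.0020, 0.0010 and 0.0023). For fasted replicate 4 they stood at -2.09, -0.91, -1.60 and -1.95, and the value near Asic2 did not pass there (adjusted p = 0.14). Rows on exons of Asic2 and Memo1 also fell (-1.74 and -0.48, adjusted p = 0.0017 and 0.010), while that of Kmt2e had 0.10 (adjusted p = 0.56).

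Some members with many reads rose in all 4 fasted livers and were named after their values were seen. The row at chr2:75637801-75642926, 16.3 kb upstream of Hnrnpa3, had 1300, 1250, 1110 and 1650 in fasted livers, against 477, 572, 497 and 552 in ad libitum livers. It rose by 1.34 ± 0.14 (edgeR, adjusted p = 2.6e-05) and by 1.65 in fasted replicate 4, while the row on Hnrnpa3 exons had -0.12 (adjusted p = 0.52). A row at chr6:41198693-41201843, 100 kb from the trypsin gene Try4, had 145, 164, 145 and 201 in fasted livers, against 60.8, 68.0, 79.4 and 67.3 in ad libitum livers. A row at chr14:32118000-32118942, downstream of Oxnad1, had 65.8, 78.3, 55.3 and 79.3 in fasted livers, against 23.8, 31.1, 26.9 and 29.7 in ad libitum livers. These rose by 1.25 and 1.32 (adjusted p = 2.8e-05 and 2.1e-05), and fasted replicate 4 had the highest level of the 8 libraries in all 3 rows.

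The changed members inside GENCODE exons, most with their 3′ ends shown above, moved as follows. 9430083B18Rik, 19.5 kb from Apcs, the gene of serum amyloid P, had 1.69, 1.35, 2.33 and 2.27 in fasted livers, against 0.571, 0.791, 0.828 and 0.890 in ad libitum livers, and rose by 1.30 ± 0.22 (edgeR, adjusted p = 0.0013). Gm43923 and Gm43800 rose by 0.78 and 0.61 (adjusted p = 0.0056 and 0.0052), and 5330406M23Rik, inside the Lncpint locus, by 0.36 (adjusted p = 0.023, and 0.070 to 0.081 without ad libitum replicate 1, 3 or 4). Gm45817, Gm38383 and Gm37606 fell by 0.96, 0.94 and 0.83 (adjusted p = 0.0098, 0.00051 and 0.0016). Gm42503 had 24.5, 20.4, 25.2 and 28.3 in fasted livers, against 53.6, 50, 33.6 and 29.8 in ad libitum livers. It fell by 0.76 (adjusted p = 0.018, and 0.052 to 0.057 without fasted replicate 1 or 3 or ad libitum replicate 2). In fasted replicate 4, estimates for 9430083B18Rik, Gm43800, Gm43923 and 5330406M23Rik were 1.56, 0.72, 0.78 and 0.48. Those for Gm45817, Gm38383, Gm37606 and Gm42503 were -0.80, -0.81, -0.62 and -0.56.

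Of the 5 most-read members on named non-coding genes, which include the Rn7s6 row, 2 passed the test. Malat1, a nuclear speckle RNA, had 511, 598, 605 and 598 in fasted livers, against 527, 678, 584 and 536 in ad libitum livers, and its log2 difference of -0.01 ± 0.12 did not pass (adjusted p = 0.97). A row on Lncpint, a p53-regulated long non-coding RNA, had 24.9, 31.3, 30.9 and 31.6 in fasted livers, against 24.0, 20.4, 19.5 and 18.5 in ad libitum livers, and rose by 0.53 ± 0.11 (edgeR, adjusted p = 0.0067). Its estimate for fasted replicate 4 was 0.62. The row on D5Ertd615e had 53.3, 58.9, 51.4 and 59.3 in fasted livers, against 72.1, 70, 72.4 and 71.6 in ad libitum livers. It fell by 0.36 (SE 0.09, edgeR, adjusted p = 0.017, and 0.052 to 0.071 without fasted replicate 1 or 3 or ad libitum replicate 4). Its estimate for fasted replicate 4 was -0.27. Tmem250-ps had a log2 difference of -0.11 (adjusted p = 0.49). The 3 longest tested members, of 74456, 17325 and 15933 bases near Triqk, Rbms3 and Tuba1a, had log2 differences of 0.11, 0.25 and 0.32, and none passed (adjusted p = 0.55, 0.29 and 0.11).

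At the edge of the rule, the 2 members nearest to the distance limit lay 10002 and 10003 bases from Ica1l and Eif2s3x, with means of 0.261 and 0.0662 in fasted livers and 0.279 and 0.0816 in ad libitum livers. The 2 rows just outside lay 9999 and 9998 bases from Fgfbp3 and Papola, with means of 0.209 and 0.486 in fasted livers and 0.0894 and 0.379 in ad libitum livers. At the read limit, 92 members had exactly 50 reads and 11 rows just missed it with 49.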

How the data were processed

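Counts and RPKM per transcript of the NONCODE catalogue were deposited for 8 liver libraries, with coordinates, length, number of exons and a CNCI score, per the file headers. The RPKM values deposited by the authors were not used in any result. The CNCI score is another value per transcript, deposited with no library. The submitters' processing notes name bcl2fastq 2.17, BWA and mm10. No source used here names the tool that counted reads, or says how strand and multiply placed reads were treated. Most counts were even, and if both reads of each pair were counted, counting error is larger than the counts imply. An empty cell was read as 0.

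The mitochondrial 16S rRNA row, empty in ad libitum replicate 3, was left out of totals and tests, which left 51107745 to 119486211 reads per library. Deposited starts count from 0 and were raised by 1. Distances came from GENCODE release 21. The table was fitted whole with edgeR 4.0.16 (TMM, filterByExpr, robust quasi-likelihood test, R 4.3.3), and adjusted p-values run over 40840 rows. Levels are CPM, relative to the TMM-scaled library. SE is the log2 difference divided by the root of F. The pseudocount for log2 differences of single libraries was 0.05. Python 3.11.15 and scipy 1.17.1 were used for the rest. DESeq2 1.42.0 and limma 3.58.1 with voom were alternatives. The fit was tested on simulated counts.

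Members that overlap form a locus. Named were the 8 loci of highest level per kilobase, the 8 largest rises and falls (adjusted p under 0.05, at least 1 CPM in the higher group, groups not overlapping, 1 per locus), the 3 longest tested, the 5 most-read on a named non-coding gene, the 6 of lowest p beside a listed gene, and the 2 nearest to each threshold. The members, gene lists and tests were chosen with earlier results of these data known. Sequences are from GENCODE transcripts, and 2 of them are not reported here. The labels call the libraries of a group biological replicates.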

Additional observations from a re-analysis of the deposited data

Results flagged for a closer look

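Of 122 groups of 4 libraries behind the 61 named members, 9 had 1 library far from the other 3 by Dixon's ratio of gap to range, where chance flags about 1 in 20. Fasted replicate 4 was low at chr10:88844718-88846147 (ratio 0.896, 0.0748 CPM), at chr6:136464032-136465858 (0.915, 0.187) and at chr16:20892359-20893162 near Chrd (0.895, 0.387). Fasted replicate 1 was low for Malat1 (0.926, 511), for the Lncpint row (0.900, 24.9) and for the row 13.7 kb from Insig2 (0.874, 1.24). Fasted replicate 2 was high near Memo1 (0.833, 1.22). Ad libitum replicate 2 was high at chr10:88844718-88846147 (0.838, 0.288) and ad libitum replicate 3 was high in the row 33.8 kb from Insig2 (0.846, 8.32). The part of depth or library preparation in these values was not tested.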

How the results depend on the processing

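The counts of 620 higher and 327 lower members stayed within 1.5 times with RLE scaling, DESeq2, the replicate block, halved counts, chrM and ribosomal DNA rows left out, at least 200 reads and 1 row per locus. They were outside it as follows. Library totals alone gave 139 lower, limma-voom 276 higher (291 lower), no low-count filter 1563 higher (411 lower) and at least 1 CPM in 4 libraries 221 higher (227 lower), the last with fewer rows tested. The term for fasted replicates 1 to 3 gave 86 higher and 39 lower, and distances over 50 kb, which leave fewer members, 245 higher and 166 lower. Leaving out 1 library gave 288 to 1615 higher and 169 to 489 lower, and the number of members tested changed too. Apart from fewer rows or members, the cause was not tested. The replicate block gave 472 higher and 238 lower. Replicate numbers did not pair the libraries, since same-numbered libraries had correlated deviations of -0.00 to 0.04. It ended 12 of the 52 calls among named members and reversed none. The share difference of 1.21 points was 0.515 beyond 50 kb (exact permutation p = 0.0571), 0.143 without the 10 most abundant members (p = 0.429) and 0.860 to 1.44 without 1 library (each p = 0.0571, the smallest that 4 against 3 allows). With the term for fasted replicates 1 to 3, log2 values turned to -0.27 (chr18:7028754-7030291), -0.04 (chr16:74700485-74709043), -0.70 (chr9:4259574-4261213), -0.12 (chr6:136464032-136465858) and -1.11 (chr10:88844718-88846147), and 23 other named calls were lost. DESeq2 and RLE scaling kept the direction and the side of the threshold of all 61 named members, and limma-voom lost 12. Low depth limits the many members near the level of 3 reads.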
